A study of Mus musculus with 6 samples.

Results

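The expression of 43 genes of TNF and NF-κB signaling was examined in MCA205 tumors, of 54309 gene identifiers in the deposited table. The members were taken from a written list of NF-κB subunits, kinases, receptors, regulators and known target genes, and each of the 43 matched 1 identifier. Of these, 41 reached a mean of 10 normalized counts and were tested. *Csf2* and *Csf3* lay below that minimum. MCA205 is a transplantable fibrosarcoma line of C57BL/6 origin, and FF-10101 is a covalent inhibitor of the receptor tyrosine kinases FLT3 and CSF1R. Per the study's methods the hosts were female C57BL/6J mice used at 7 weeks of age, with no engineered allele named, and tumor cells were injected under the skin on day 0. The control mice drank MilliQ water and the treated mice had 0.1 mg/mL FF-10101 added to their bottles from day 1, and whole tumors were taken on day 8 for bulk RNA sequencing, with 3 tumors in each group. A transplanted line is a single tumor genotype in a host with an intact immune system, and the labels do not say which animal gave which tumor, so p-values measure the spread between these 6 libraries. Each value is therefore a sum over tumor cells, macrophages, vessels and every other cell of the tissue, in which fewer cells of a type and less RNA per cell cannot be told apart.

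TNF binds TNFR1 (*Tnfrsf1a*), which most cells carry, and TNFR2 (*Tnfrsf1b*), which is mainly carried by leukocytes and endothelial cells. The receptors recruit TRAF and cIAP proteins, which activate the IκB kinase complex. The kinases mark IκB proteins for degradation, and the freed NF-κB dimers enter the nucleus, where they switch on cytokines, adhesion molecules, survival genes and their own inhibitors. Because signaling acts through protein modification and location, the subunit and kinase transcripts and the inducible target transcripts are separate readouts, and they were described apart here. The machinery comprised 16 genes (*Tnfrsf1a*, *Tnfrsf1b*, *Traf2*, *Birc2*, 6 kinase-level genes, 5 subunits and *Nfkbib*), and the inducible targets comprised 27 genes, of which 25 were tested. The machinery also holds genes that are themselves inducible, such as the kinase gene *Ikbke*, so it is not a list of non-inducible genes.

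Recovered reads numbered 9143806 to 9643535 per control tumor and 9277019 to 13258258 per FF-10101 tumor. Normalized counts are these reads divided by 1 size factor per tumor, and fold changes are on the scale of log2(normalized count + 1) with their standard errors (SE), a scale that compresses the differences of genes with few reads. Control tumor 1 stood apart from its group before any member was considered. Across the 13963 genes tested, its values correlated at r = 0.916 to 0.929 with the other control tumors and at r = 0.952 to 0.961 with the FF-10101 tumors, against 0.947 to 0.977 for the other pairs within a group (Pearson, across genes, which are not independent replicates). Member values that moved by over 1.5 times or changed their call without this tumor are given with and without it. The mesenchymal markers that fit a fibrosarcoma (8 genes, among them *Col1a1*, *Col1a2*, *Vim* and *Fn1*) were read in every tumor, with summed levels of 122480 to 303890 normalized counts in the control and 243260 to 350290 in the FF-10101 tumors.

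With all 6 tumors, none of the 41 tested members passed an adjusted p of 0.05 (limma with Benjamini-Hochberg adjustment over 13963 genes), where 0.043% of all genes tested did (0.0286% higher and 0.0143% lower). A log2 fold change above 0 was found for 31 of the 41 members (75.6%, 12 of 16 machinery genes and 19 of 25 inducible targets), against 51.9% of all genes tested. With each tumor left out, this held for 27 to 35 of the 41 members and 8 to 15 of the 16 machinery genes. It held for 7100 to 7397 of the 13963 genes tested. With all 6 tumors, an unadjusted p under 0.05 was reached by 6 members, which is 14.6% of them and close to the 16.3% of all genes tested. All 6 were inducible targets. *Vcam1*, *Tnfaip2*, *Sod2*, *Tnfaip3* and *Ptgs2* were higher and *Cd83* was lower in the FF-10101 tumors. None of the 16 machinery genes reached an unadjusted p of 0.05. The groups did not overlap for 5 members, the same genes apart from *Tnfaip2*, that is 12.2% of the members, against 20.2% of all genes tested (10.9% higher and 9.37% lower). A log2 fold change beyond 1 in size was fitted for 2 members, *Tnfaip2* and *Vcam1*, against 8.59% of all genes tested. The median log2 fold change was 0.22 over the members, 0.080 over the machinery and 0.28 over the inducible targets, against 0.020 over all genes tested. Without control tumor 1 these medians were 0.35, 0.22 and 0.49, against 0.036. Without control tumor 2 they were 0.14, 0.017 and 0.16, against 0.018. Without control tumor 3 they were 0.092, −0.0050 and 0.18, against 0.0063.

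**Figure D1:**
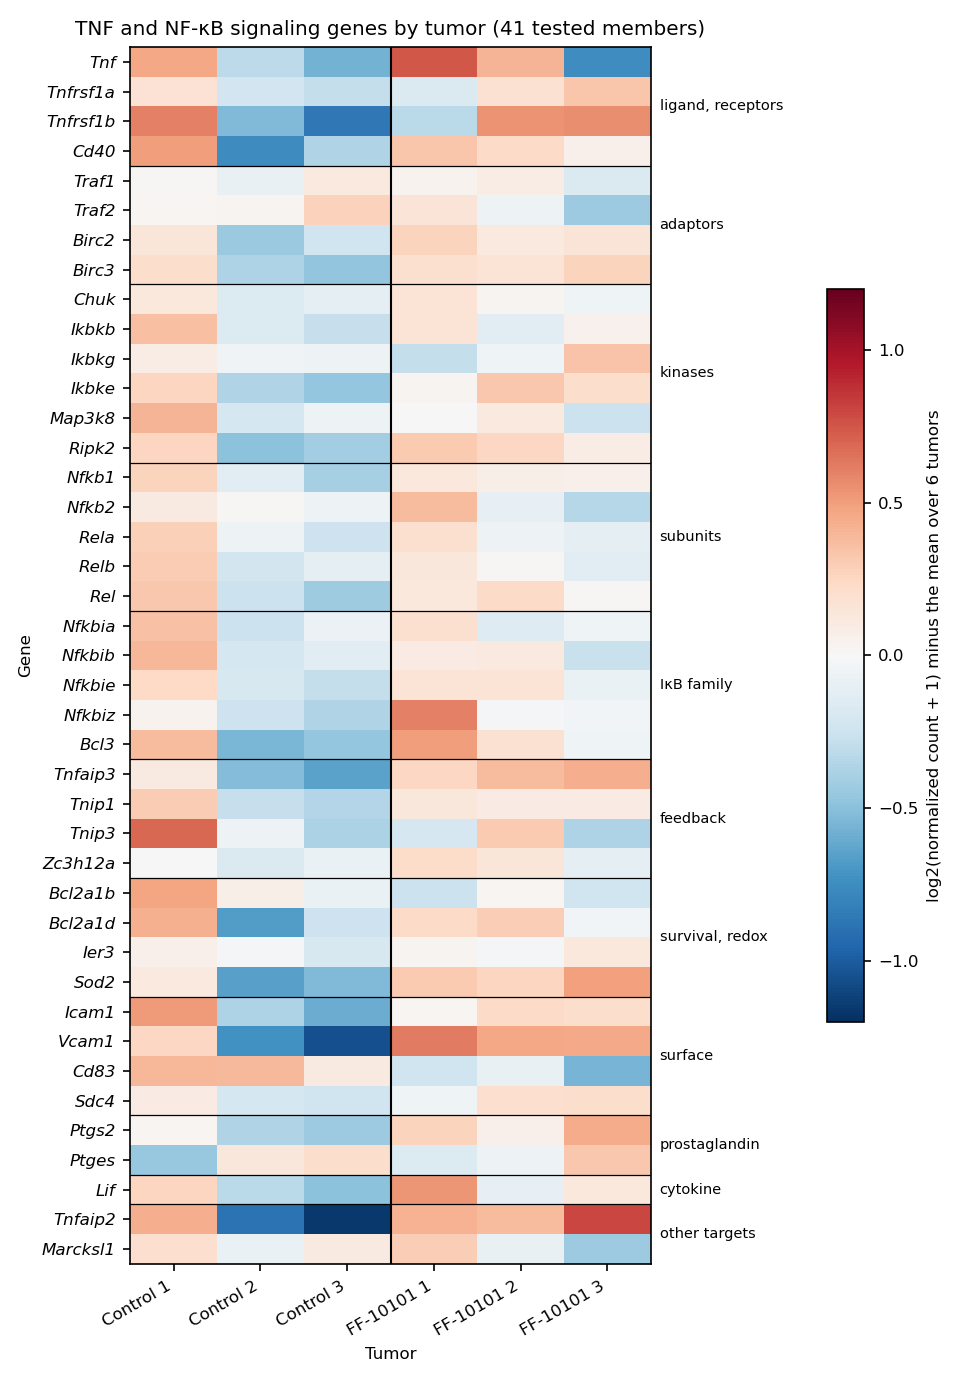
Rows are the 41 tested members grouped by role and columns are the 6 tumors. Color is log2(normalized count + 1) minus the mean of the gene over the 6 tumors, red for higher and blue for lower. Control tumor 1 is redder than the other control tumors in most rows, and *Tnfaip2* and *Vcam1* have the largest log2 fold changes (1.07 and 1.03).

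The spread of the members lay mostly within the control group. Control tumor 1 was the highest of the 3 control tumors for 38 of the 41 members, or 92.7%, where this held for 44.6% of all genes tested. The median of the members relative to their mean over the 6 tumors was 0.25 in control tumor 1, −0.23 and −0.29 in control tumors 2 and 3, and 0.17, 0.12 and 0.052 in FF-10101 tumors 1, 2 and 3 (log2 scale). For 17 members, control tumor 1 had over 1.5 times the mean of the other control tumors. This was not counted over all genes tested, so the count does not set the members apart. Without control tumor 1, 15 of the 41 members passed an adjusted p of 0.05, all of them higher in the FF-10101 tumors. That is 36.6% of the members, against 12% of all genes tested that passed in this direction and 9.88% that passed in the other. An unadjusted p under 0.05 was then reached by 20 members, 19 higher and 1 lower, against 37% of all genes tested (19.8% higher and 17.2% lower), and 35 members had a log2 fold change above 0, against 52.6%. Leaving out this tumor necessarily raised the log2 fold change of the 38 members for which it was the highest control tumor. The members were also chosen with earlier results of these data known, so these shares are not independent evidence of direction. The 15 comprised 4 of the 16 machinery genes (*Tnfrsf1b*, *Birc2*, *Ripk2* and *Ikbke*) and 11 of the 25 inducible targets (*Cd40*, *Birc3*, *Bcl3*, *Tnfaip3*, *Tnip1*, *Bcl2a1d*, *Sod2*, *Icam1*, *Vcam1*, *Ptgs2* and *Tnfaip2*). With any of the other 5 tumors left out in turn, 0 members passed, and 3 to 6 of 41 had an unadjusted p under 0.05 (limma), against 7.6% to 17.1% of all genes tested.

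**Figure D2:**
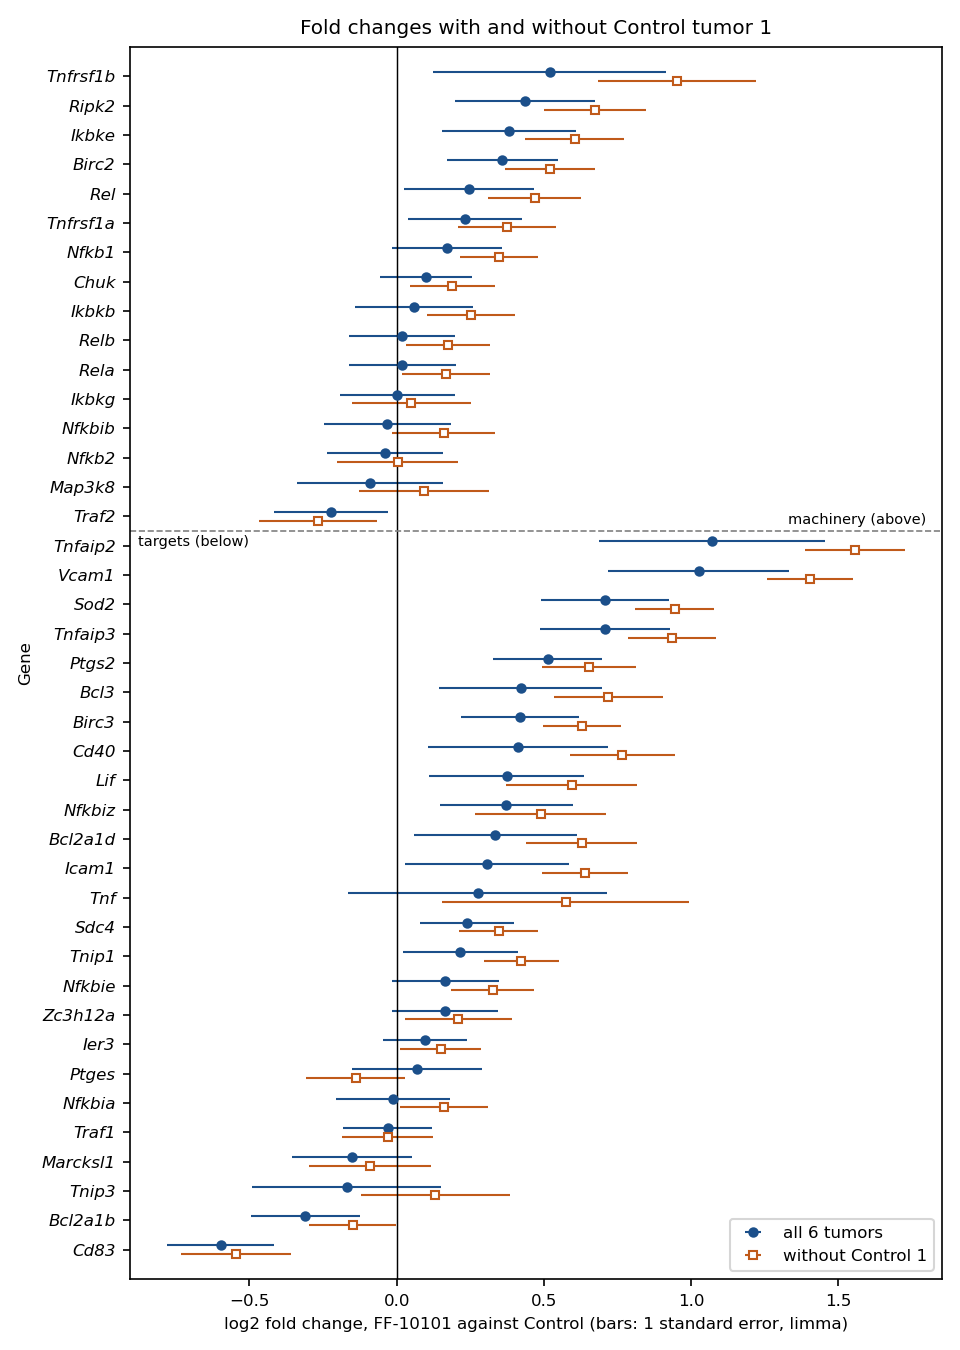
The log2 fold change of each tested member (FF-10101 against Control) is plotted with all 6 tumors as filled circles and without Control tumor 1 as open squares, with bars of 1 standard error. The machinery genes lie above the dashed line and the inducible targets below it. The values without Control tumor 1 are shifted to the right for most members, as for *Tnfrsf1b* (0.52 to 0.95) and *Vcam1* (1.03 to 1.404).

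*Tnf* itself was a low transcript with overlapping groups. It had 114, 66.3 and 55.5 normalized counts in control tumors 1, 2 and 3 and 139, 109.7 and 48.9 in FF-10101 tumors 1, 2 and 3. The highest value and the lowest value of all 6 tumors were both in the FF-10101 group. The log2 fold change was 0.28 (SE 0.44, limma adjusted p = 0.776), and it was −0.029 without FF-10101 tumor 1 and 0.57 without control tumor 1. *Tnfrsf1a*, the receptor with a death domain, had 2209.7, 1674 and 1607 normalized counts in the control and 1746, 2229 and 2476 in the FF-10101 tumors, a log2 fold change of 0.23 (0.38 without control tumor 1). *Tnfrsf1b* varied more, with 2330.1, 1064 and 844 in the control and 1226, 2224 and 2260.4 in the FF-10101 tumors. Control tumor 1 was the highest of the 6, FF-10101 tumor 1 lay near control tumor 2, and the log2 fold change was 0.52 (adjusted p = 0.538) with all tumors and 0.95 (adjusted p = 0.0397, limma in both) without control tumor 1. *Cd40*, a costimulatory TNF receptor family member of antigen-presenting cells, had 548, 228 and 301 and 486, 454 and 403 normalized counts in the same order. Its FF-10101 tumors lay together above control tumors 2 and 3 and below control tumor 1, with log2 fold changes of 0.41 with all tumors and 0.77 without that tumor (adjusted p = 0.523 and 0.0212 from limma). T cell markers (8 genes, 8 tested, 8 higher) moved in the same order over the tumors, with summed levels of 2671, 1044 and 929.5 normalized counts in control tumors 1, 2 and 3 and 1292, 2279 and 2445 in FF-10101 tumors 1, 2 and 3, and their part in the *Tnfrsf1b* values was not tested.

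Among the adaptors, the cIAP genes had positive and the TRAF genes negative log2 fold changes with all 6 tumors, and none passed the adjusted test. *Birc3*, which encodes the ubiquitin ligase cIAP2 and is itself an NF-κB target, had 693, 463 and 433 normalized counts in the control and 684, 673 and 723 in the FF-10101 tumors. Control tumor 1 lay within the narrow range of the FF-10101 tumors, so the groups overlapped (log2 fold change 0.42, SE 0.20, limma adjusted p = 0.342; 0.63 and adjusted p = 0.0154 without that tumor). *Birc2*, which encodes cIAP1, had 398, 265 and 306 and 435, 392 and 402, a log2 fold change of 0.36 (SE 0.19, limma adjusted p = 0.375), and of 0.52 (adjusted p = 0.045) without control tumor 1. *Traf2*, the adaptor that brings the cIAPs to the receptor, had 434, 438 and 516 and 477, 410.4 and 315 normalized counts and a log2 fold change of −0.22. *Traf1*, an inducible TRAF, was the most level of the 4, with 479.9 ± 33.5 (SD, n = 3) in the control and 470.4 ± 43.9 (SD, n = 3) in the FF-10101 tumors. *Birc3* shares 12.9% and *Birc2* 3.73% of their transcript 31-mers with other genes, partly with each other, so their reads are separated by estimation in part.

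The kinase-level genes had log2 fold changes between −0.091 and 0.44. The core IκB kinase complex had log2 fold changes of 0.1, 0.06 and 0.0026 for *Chuk*, *Ikbkb* and *Ikbkg*, and of 0.19, 0.25 and 0.05 without control tumor 1, none of which passed the adjusted test. *Chuk* (IKKα) had 424 ± 47.5 (SD, n = 3) normalized counts in the control and 454 ± 34.9 (SD, n = 3) in the FF-10101 tumors, and *Ikbkb* (IKKβ) had 565 ± 139.8 (SD, n = 3) and 579.8 ± 57.8 (SD, n = 3). *Ikbkg*, the regulatory subunit NEMO, had 343 ± 19.9 (SD, n = 3) and 349 ± 78.1 (SD, n = 3), and its log2 fold change lay between −0.17 and 0.14 with each tumor left out. Two-sided exact permutation tests gave p = 0.4, 0.8 and 0.9 for the 3 genes, where the smallest possible p for 3 tumors against 3 is 0.1. *Ripk2*, the kinase that relays NOD receptor signals, had 229, 136 and 143 in the control and 238, 228 and 204 in the FF-10101 tumors, with control tumor 1 among the treated tumors. The log2 fold change was 0.44 (SE 0.24, limma adjusted p = 0.393) and 0.67 (adjusted p = 0.0302) without that tumor. *Ikbke*, the inducible kinase IKKε, had 307, 199.9 and 186 and 264, 324 and 298, again with control tumor 1 among the treated tumors, a log2 fold change of 0.38 with all tumors and 0.61 (limma adjusted p = 0.0376) without control tumor 1. *Map3k8*, the kinase that links this pathway to ERK in macrophages, had 136, 88 and 97.6 and 102, 111 and 85.3, and its log2 fold change changed sign between these fits (−0.091 and 0.092).

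The 5 NF-κB subunits had a median log2 fold change of 0.019, against 0.020 over all genes tested. Without control tumor 1 it was 0.18, with 5 of 5 subunits above 0, against 0.036. Without control tumor 2, control tumor 3 or FF-10101 tumor 1 it was −0.0089, −0.031 and −0.045, with 2 of 5 above 0 each time. The medians over all genes tested were then 0.018, 0.0063 and 0.036. *Nfkb1* (p105/p50) had 2282, 1726 and 1438 normalized counts in control tumors 1, 2 and 3 and 2066, 1981 and 1972 in FF-10101 tumors 1, 2 and 3. Its FF-10101 values fell inside the control range, and the log2 fold change was 0.17 (SE 0.19, limma adjusted p = 0.668), or 0.35 (adjusted p = 0.0975) without control tumor 1. *Rela* (p65), the transactivating partner of p50, had 1373, 1075 and 943 and 1288, 1080.2 and 1040.0, a log2 fold change of 0.019 (SE 0.18, limma adjusted p = 0.969). *Relb* and *Nfkb2*, which form the dimer of the alternative pathway, had log2 fold changes of 0.019 and −0.04, with 833, 579 and 626 and 743, 682 and 620.4 normalized counts for *Relb* and 1792, 1681 and 1601 and 2165, 1560.0 and 1315 for *Nfkb2*. Both overlapped fully between the groups. *Rel*, the lymphoid and myeloid subunit c-Rel, had 384, 255 and 227 and 334, 359 and 310.2, the largest log2 fold change of the 5 at 0.25 (limma adjusted p = 0.6; 0.47 and 0.0699 without control tumor 1). The signs of *Rela*, *Relb* and *Nfkb2* changed with single tumors left out, and without control tumor 1 their log2 fold changes were 0.17, 0.18 and 0.0029. Per kilobase of the longest coding transcript, the control means were 441 normalized counts for *Nfkb1*, 439.8 for *Nfkb2*, 416 for *Rela*, 308 for *Relb* and 38.7 for *Rel*. *Nfkb1*, *Nfkb2* and *Rela* were thus at like levels and differed by less than the spread of *Nfkb1* over the control tumors, while *Rel*, whose transcript is long, was far lower on this scale. A part of the *Nfkb2* transcript, 19.4% of its 31-mers, is shared with other annotated genes.

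**Figure D3:**
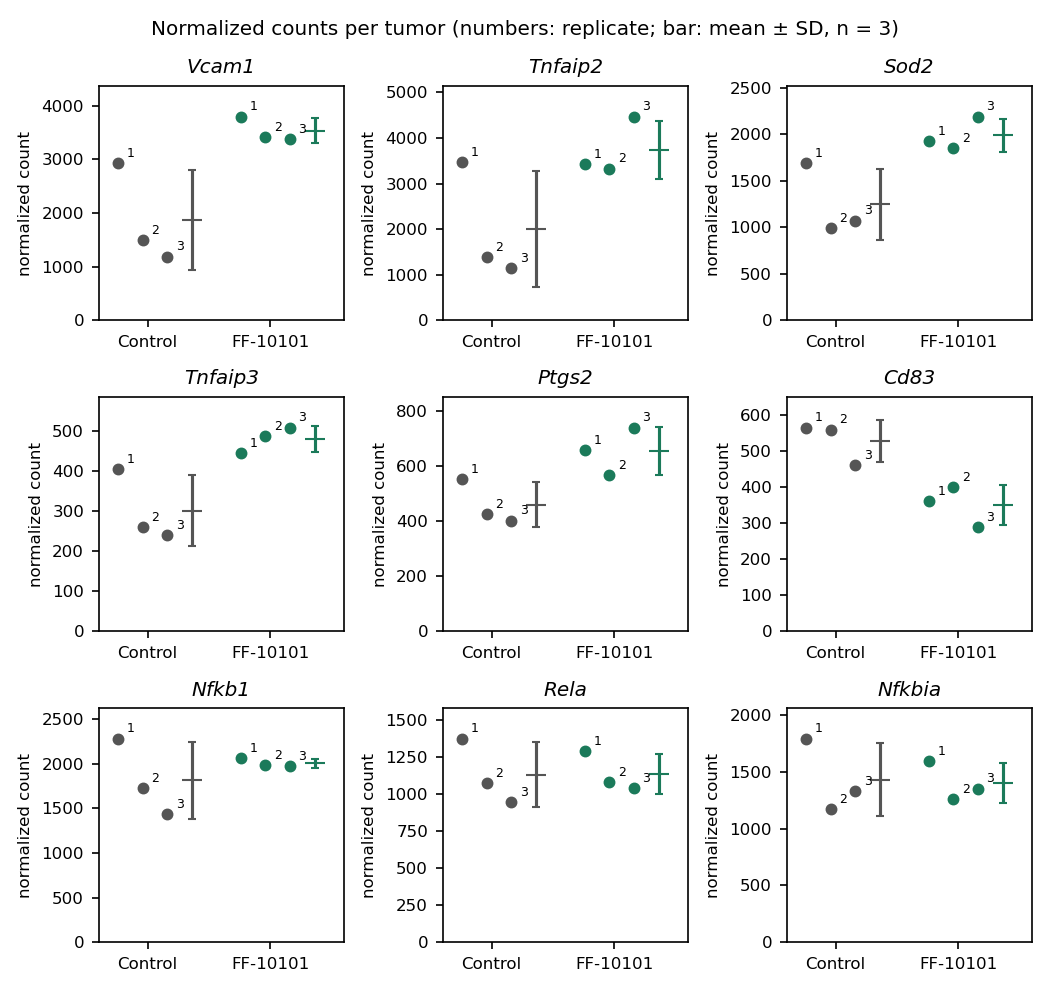
Normalized counts (y axis, from 0) of 9 members are shown for each Control and FF-10101 tumor, with the replicate number beside each point and the mean ± SD (n = 3) beside each group. *Vcam1*, *Sod2*, *Tnfaip3* and *Ptgs2* lie above every control tumor and *Cd83* below in the FF-10101 group, *Tnfaip2* overlaps through Control tumor 1, and *Nfkb1*, *Rela* and *Nfkbia* overlap.

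The promoters of inducible members were examined next, because the IκB and feedback genes are known to be switched on by NF-κB itself. The RefSeq promoter table (GRCm38.p6, from 250 bases before to 50 bases after each annotated start) held windows for 33 of the 43 members. No window was used for *Cd40*, *Cd83*, *Csf3*, *Ikbkb*, *Map3k8*, *Nfkb1*, *Nfkbiz*, *Relb*, *Ripk2* and *Vcam1*. A match to the NF-κB consensus on either strand was found for 11 of the 33 (33.3%), against 5.14% of the 27025 genes with a window. Matches were found for 9 of 22 inducible targets (40.9%) and 2 of 11 machinery genes (18.2%, *Nfkb2* and *Rel*). The TATA motif TATAAA was found for 15.2% of the members and 15.7% of all genes, and the AP-1 motif TGACTCA for 12.1% and 5.95%, on either strand. The members were listed as NF-κB genes, so these shares describe the list, and a match is not evidence that a factor was bound in these tumors. The windows of 5 members are shown because they cover members whose groups did not overlap (*Tnfaip3* and *Sod2*) and members whose groups did. Matches are in capitals and each line is read 5′ to 3′ on the strand of the gene.
Tnfaip3 (chr10:19015361-19015660, minus strand): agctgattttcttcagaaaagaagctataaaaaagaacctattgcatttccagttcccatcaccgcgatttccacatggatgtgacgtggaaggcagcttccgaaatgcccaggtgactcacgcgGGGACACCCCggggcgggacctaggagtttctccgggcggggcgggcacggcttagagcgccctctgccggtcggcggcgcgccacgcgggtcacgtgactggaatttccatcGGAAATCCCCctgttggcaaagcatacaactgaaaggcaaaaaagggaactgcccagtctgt
Sod2 (chr17:13007589-13007888, plus strand): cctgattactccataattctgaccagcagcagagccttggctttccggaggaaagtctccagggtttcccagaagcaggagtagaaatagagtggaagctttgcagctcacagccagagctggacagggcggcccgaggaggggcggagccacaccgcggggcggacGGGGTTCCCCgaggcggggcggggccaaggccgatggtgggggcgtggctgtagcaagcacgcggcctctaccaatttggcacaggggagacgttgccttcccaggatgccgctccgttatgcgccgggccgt
Tnip1 (chr11:54962891-54963190, minus strand): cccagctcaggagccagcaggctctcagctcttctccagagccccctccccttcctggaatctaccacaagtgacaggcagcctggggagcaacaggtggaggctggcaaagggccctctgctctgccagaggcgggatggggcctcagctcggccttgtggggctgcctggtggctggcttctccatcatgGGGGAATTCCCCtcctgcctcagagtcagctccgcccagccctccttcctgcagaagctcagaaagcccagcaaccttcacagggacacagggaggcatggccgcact
Nfkbia (chr12:55492598-55492897, minus strand): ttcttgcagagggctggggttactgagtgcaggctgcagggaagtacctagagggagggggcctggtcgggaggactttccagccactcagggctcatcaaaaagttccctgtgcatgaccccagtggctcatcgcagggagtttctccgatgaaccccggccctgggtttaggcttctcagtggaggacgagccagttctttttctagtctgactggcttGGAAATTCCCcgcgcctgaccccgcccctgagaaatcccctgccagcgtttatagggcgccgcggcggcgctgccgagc
Nfkb2 (chr19:46304487-46304786, plus strand): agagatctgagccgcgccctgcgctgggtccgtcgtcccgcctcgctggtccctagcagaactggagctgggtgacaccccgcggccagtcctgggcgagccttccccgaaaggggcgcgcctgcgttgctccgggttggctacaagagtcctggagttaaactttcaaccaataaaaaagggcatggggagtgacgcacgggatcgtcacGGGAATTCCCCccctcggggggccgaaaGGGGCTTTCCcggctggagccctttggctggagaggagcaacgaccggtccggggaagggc

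*Tnfaip3* had 2 windows in the table, of which the other held no match, and in the one shown the matches began 125 and 12 bases before the start, on opposite strands. In *Sod2* the single match, GGGGTTCCCC, began 83 bases before the start. *Tnip1* held 3 overlapping matches that began 58, 57 and 56 bases upstream, and in *Nfkb2* a pair of overlapping matches began 39 and 38 bases upstream, with another at 11. The other *Nfkb2* windows, chr19:46305445-46305744 and chr19:46305680-46305979, held GGAATGTCCC on the opposite strand and GGGACTTTCC, the latter in the stretch where they overlap. *Nfkbia* held GGAAATTCCC, on the opposite strand, 29 bases upstream. Single matches were also found in *Ier3* (GGAGTTCCCC, 92 bases upstream), *Nfkbie* (GGGGGATTCC, 106 bases), *Sdc4* (GGGGAATTCC, 82 bases), *Tnip3* (GGGAAATCCC, 54 bases) and *Bcl3* (GGGAAGTCCC, from the base at position 3 of the transcript), and *Rel* held an overlapping pair from 92 and 91 bases. Of the 11 members with a match, *Tnfaip3* and *Sod2* had an unadjusted p under 0.05, whereas the windows of *Ptgs2* and *Tnfaip2*, which were also higher at that threshold, held no match. The other 9 had log2 fold changes between −0.17 (*Tnip3*) and 0.42 (*Bcl3*).

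**Figure D4:**
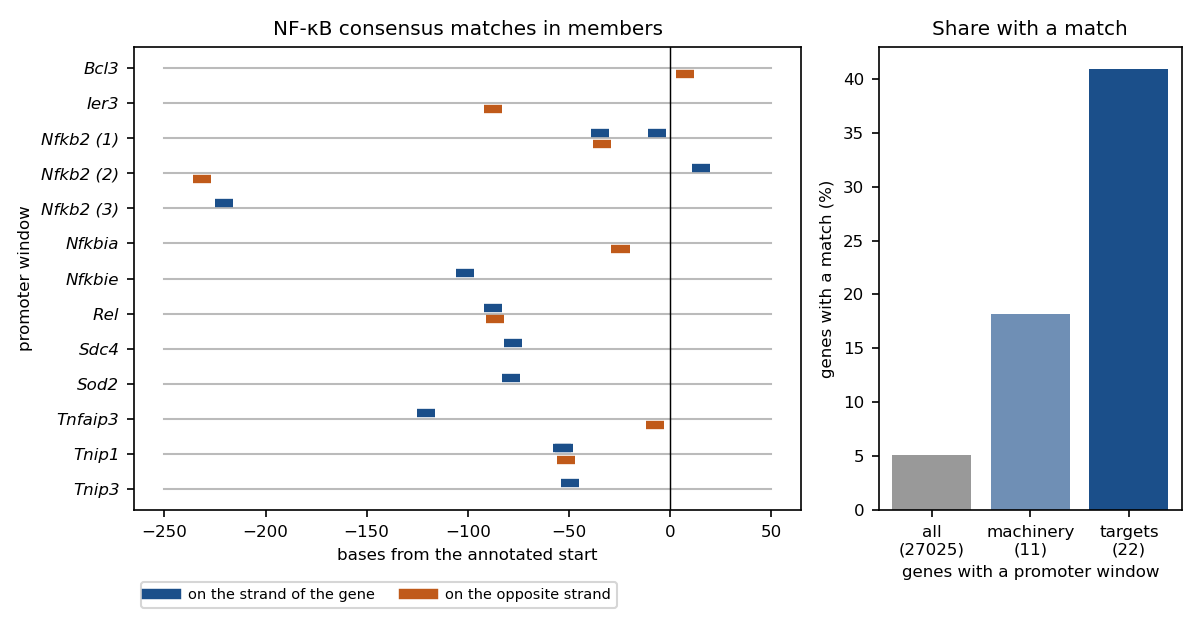
On the left, each grey line is a promoter window of a member from 250 bases before to 50 after the annotated start (x axis, bases), with matches to the NF-κB consensus on the strand of the gene in blue and on the opposite strand in orange. *Nfkb2* has 3 windows. On the right, bars give the percentage of genes with at least 1 match: 5.14% of all genes with a window, 18.2% of machinery members and 40.9% of target members.

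The transcripts of the IκB proteins that hold NF-κB in the cytoplasm had fold changes near 0 or within the spread of the tumors. *Nfkbia* (IκBα), the classic rapid feedback inhibitor, had 1789.8, 1167 and 1331 normalized counts in the control and 1595, 1256 and 1351 in the FF-10101 tumors. The highest tumor was control tumor 1 and the lowest control tumor 2. The log2 fold change was −0.013 (SE 0.19, limma adjusted p = 0.981). Its sign changed under both other scalings, where it was 0.0049 and 0.005, and without control tumor 1 it was 0.16. *Nfkbib* (IκBβ) had 376 ± 91.8 (SD, n = 3) and 364 ± 52.7 (SD, n = 3) normalized counts, and *Nfkbie* (IκBε) 779 ± 159 (SD, n = 3) and 865 ± 83.2 (SD, n = 3). Their log2 fold changes were −0.032 and 0.17 with all tumors and 0.16 and 0.33 without control tumor 1. The atypical nuclear IκB genes had higher means in the FF-10101 group without passing the adjusted test. *Nfkbiz* (IκBζ), which is needed for a set of late targets, had 288, 235 and 217 in the control and 424, 277 and 273 in the FF-10101 tumors, with a log2 fold change of 0.37 (limma adjusted p = 0.437) that depended on FF-10101 tumor 1 and was 0.17 without it. *Bcl3*, a coactivator with p50 and p52 dimers, had 618, 323 and 343 and 669.8, 538 and 456, and its log2 fold change was 0.42 (limma adjusted p = 0.471) and 0.72 (adjusted p = 0.0302) without control tumor 1.

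Of the 4 feedback regulators, only *Tnfaip3* had groups that did not overlap. *Tnfaip3* encodes A20, the ubiquitin-editing enzyme that ends TNF receptor signaling. It had 404, 261 and 239.6 normalized counts in control tumors 1, 2 and 3 and 444, 487 and 508 in FF-10101 tumors 1, 2 and 3, so that every treated tumor was above every control tumor. The means were 302 ± 89.5 (SD, n = 3) and 480.1 ± 32.6 (SD, n = 3), and the log2 fold change was 0.71 (SE 0.22, unadjusted p = 0.0128, limma adjusted p = 0.234), between 0.56 and 0.94 with each tumor left out. The upper value is that without control tumor 1, where the limma adjusted p was 0.00587. An exact permutation test over the tumors, two-sided, gave its smallest possible p of 0.1. *Tnip1*, which encodes the A20 partner ABIN-1, had 929.8, 621 and 590.1 and 826, 804 and 804, with the FF-10101 tumors close to each other and all below control tumor 1 (log2 fold change 0.22, and 0.42 with adjusted p = 0.0483 from limma without that tumor). *Tnip3* (ABIN-3) had 229, 136 and 109 and 123, 176 and 109 and a log2 fold change of −0.17, or 0.13 without control tumor 1. *Zc3h12a*, the RNase Regnase-1 that degrades cytokine mRNAs, had 182 ± 11.5 (SD, n = 3) and 205 ± 24 (SD, n = 3).

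*Sod2*, the mitochondrial superoxide dismutase and a strongly NF-κB-driven gene, had 1688, 991 and 1073 normalized counts in the control and 1925, 1855 and 2191 in the FF-10101 tumors. Every FF-10101 tumor exceeded every control tumor, and control tumor 1 lay between control tumor 3 and the treated tumors. The log2 fold change was 0.71 (SE 0.22, unadjusted p = 0.0117, limma adjusted p = 0.233; 0.94 and adjusted p = 0.00401 without control tumor 1). The antiapoptotic BCL2 relatives *Bcl2a1b* and *Bcl2a1d* had fold changes of opposite sign. *Bcl2a1b* had 1212, 912 and 825 and 730.1, 886 and 739 normalized counts and a log2 fold change of −0.31 (SE 0.18, limma adjusted p = 0.428), or −0.15 (adjusted p = 0.489) without control tumor 1. *Bcl2a1d* had 472, 221 and 295 and 414, 432 and 345, with a log2 fold change of 0.33, or 0.63 (limma adjusted p = 0.0479) without control tumor 1. These genes are near-identical copies: 88.8% of the 31-mers of *Bcl2a1b* and 89.1% of those of *Bcl2a1d* occur in other genes, mainly *Bcl2a1a* and each other, so the split of reads between them is uncertain. *Ier3*, an early response gene, overlapped, at 631 ± 55.3 (SD, n = 3) and 674 ± 34.8 (SD, n = 3) (log2 fold change 0.096, or 0.15 without control tumor 1).

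*Vcam1*, the endothelial and stromal ligand of the leukocyte integrin VLA-4, had the smallest p of all members. It had 2929, 1493 and 1190.2 normalized counts in control tumors 1, 2 and 3 and 3799.5, 3421 and 3382 in FF-10101 tumors 1, 2 and 3. The treated tumors were alike and all above the controls, whereas control tumor 1 lay nearer to the treated tumors than to the other control tumors. The means were 1871 ± 929 (SD, n = 3) and 3534 ± 231 (SD, n = 3), a log2 fold change of 1.03 (SE 0.31, unadjusted p = 0.0104, limma adjusted p = 0.229), and of 1.404 (adjusted p = 0.00112) without control tumor 1. *Icam1*, the ligand of LFA-1, had 995, 539 and 460.3 and 708, 819.6 and 806, with control tumor 1 above every treated tumor and a log2 fold change of 0.31 (0.64, with limma adjusted p = 0.0205, without that tumor). Of its transcript 31-mers, 19.2% occur in another annotated gene. Endothelial markers were also lowest in control tumors 2 and 3, and 7 of 7 were higher in the FF-10101 group (median log2 fold change 1.14), with summed levels of 6023, 2393 and 1804 normalized counts in control tumors 1, 2 and 3 and 6022, 6532 and 6498 in FF-10101 tumors 1, 2 and 3. Mesenchymal markers were higher for 7 of 8 genes, with median log2 fold changes of 0.58 with all tumors and 1.11 without control tumor 1. The part of either cell type in the *Vcam1* and *Icam1* values was not tested. *Sdc4*, the heparan sulfate proteoglycan syndecan-4, had 2216 ± 297 (SD, n = 3) and 2610.0 ± 254 (SD, n = 3).

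*Cd83*, an activation marker of dendritic cells and macrophages, was the only member lower at an unadjusted p under 0.05. It had 566, 561 and 461 normalized counts in the control and 362, 402 and 289.8 in the FF-10101 tumors. Every FF-10101 tumor lay below every control tumor, and here control tumor 1 lay beside control tumor 2. The means were 529 ± 59 (SD, n = 3) and 351 ± 56.7 (SD, n = 3), a log2 fold change of −0.60 (SE 0.18, unadjusted p = 0.0113, limma adjusted p = 0.23), between −0.70 and −0.47 with each tumor left out. Macrophage markers were lower for 9 of 10 genes (median log2 fold change −0.68) with all tumors and for 6 of 10 (median −0.44) without control tumor 1, with summed levels of 40054 to 67451 normalized counts in the control and 24104 to 33915 in the FF-10101 tumors. Dendritic cell markers overlapped, with sums of 4663 to 5295 and 3736 to 5555 and 5 of 8 genes lower, or 4 of 8 without control tumor 1. Most of each sum was *Fscn1* alone, at 4211 to 4675 and 3177 to 5207, so the sums say little about the other dendritic cell markers. The part of macrophages or dendritic cells in the *Cd83* values was not tested.

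*Ptgs2*, which encodes the inducible prostaglandin synthase COX-2, had 554, 425 and 403 normalized counts in the control and 658, 567 and 740.4 in the FF-10101 tumors. The groups did not overlap, although control tumor 1 and FF-10101 tumor 2 were close. The means were 460.5 ± 81.6 (SD, n = 3) and 655 ± 86.9 (SD, n = 3), and the log2 fold change was 0.51 (SE 0.18, unadjusted p = 0.024, limma adjusted p = 0.258; 0.65 and adjusted p = 0.0243 without control tumor 1). *Ptges*, the terminal prostaglandin E synthase that acts after COX-2, had 952, 1437 and 1509 and 1167, 1252 and 1635. With *Traf2* it was 1 of 2 tested members in which control tumor 1 was the lowest control tumor, and its groups overlapped. Its sign changed, from 0.07 with all tumors to −0.14 without control tumor 1 (log2 fold change).

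*Tnfaip2*, a TNF-induced gene of endothelial and myeloid cells, had the largest fold change of the members. It had 3466, 1381 and 1148 normalized counts in control tumors 1, 2 and 3 and 3427, 3326 and 4469 in FF-10101 tumors 1, 2 and 3. Control tumor 1 lay within the range of the treated tumors and above 2 of them, while control tumors 2 and 3 were below all of them. The log2 fold change was 1.07 (SE 0.38, unadjusted p = 0.0242, limma adjusted p = 0.258), and 1.56 (adjusted p = 0.00142) without control tumor 1. The summed endothelial markers given beside *Vcam1* likewise had control tumor 1 level with FF-10101 tumor 1 and control tumors 2 and 3 far below. Summed monocyte markers were 10787, 5824 and 5563 normalized counts in the control and 7300, 9329 and 12494 in the FF-10101 tumors. Mesenchymal, T cell, NK cell and neutrophil sums were also lowest in control tumors 2 and 3. The part of these cell types in the *Tnfaip2* values was not tested. *Marcksl1*, a MARCKS-related actin regulator, had 2096 ± 199.8 (SD, n = 3) and 1921 ± 485 (SD, n = 3) normalized counts (log2 fold change −0.15, or −0.091 without control tumor 1). Among the cytokines, *Lif*, an IL-6 family cytokine, had 227, 152 and 135 and 276, 178 and 208, a log2 fold change of 0.37 (limma adjusted p = 0.502), or 0.59 (adjusted p = 0.0937) without control tumor 1. *Csf2* (GM-CSF) was read 4, 2 and 4 times in control tumors 1, 2 and 3 and 8, 11 and 2 times in FF-10101 tumors 1, 2 and 3, and *Csf3* (G-CSF) 0, 2 and 2 times and 8, 3 and 1 times. *Csf2* and *Csf3* did not pass in limma without a minimum count (adjusted p = 0.763 and 0.709).

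The other genes of the pathway were taken from another written list, of 40 components and 48 targets that are not members. Of the 39 components tested, 0 passed an adjusted p of 0.05 and 7 had an unadjusted p under 0.05 (5 higher and 2 lower, limma), with a median log2 fold change of 0.095. That median lay between −0.022 and 0.23 with each tumor left out. Of the 46 targets tested, 0 passed an adjusted p of 0.05 and 23 had an unadjusted p under 0.05, 22 higher and 1 lower, where 8.77% of all genes tested were higher and 7.49% lower at this threshold. The median log2 fold change of these targets was 0.75, beside 0.28 for the target members and 0.020 for all genes tested. Without control tumor 1, 9 of 39 components and 30 of 46 targets passed an adjusted p of 0.05 (limma), against 21.9% of all genes tested. The list was written with earlier results of these data known, so its counts are not independent evidence of direction. The 4 with the smallest p were *Plau*, *Cxcl2*, *Il1rn* and *Cxcl5*. *Plau*, the urokinase plasminogen activator, had 1251, 1304 and 1244 normalized counts in the control and 759.9, 493 and 560.0 in the FF-10101 tumors, a log2 fold change of −1.09 (SE 0.18, limma adjusted p = 0.184). Each treated tumor lay below every control tumor, with little spread over the control tumors. *Il1rn*, the decoy ligand of the IL-1 receptor, had 1089.6, 422 and 389 and 1618, 1958 and 2074, with every treated tumor above every control tumor and a log2 fold change of 1.73 (limma adjusted p = 0.229). The neutrophil chemokine *Cxcl2* had 28.1, 15.2 and 18.9 and 129.8, 78.2 and 75.6 normalized counts, a log2 fold change of 2.13 (limma adjusted p = 0.184). *Cxcl5*, another ligand of CXCR2, had 247, 48.9 and 27.7 and 736, 481 and 377, a log2 fold change of 2.85 (limma adjusted p = 0.229). In both, every treated tumor was above every control tumor. Without control tumor 1 the log2 fold changes were −1.099 for *Plau*, 2.21 for *Il1rn*, 2.37 for *Cxcl2* and 3.76 for *Cxcl5*, with limma adjusted p = 0.00807, 0.000262, 0.00399 and 0.000681. Neutrophil markers were higher for 7 of 7 tested genes of 10, with summed levels of 559 to 1232 normalized counts in the control and 1534 to 2281 in the FF-10101 tumors. *Ngp* had no read in any tumor, and *Ly6g* and *Camp* had 1 read each in 1 tumor. The part of neutrophils in these values was not tested. The other marker sums overlapped between the groups or were low: monocyte 5563 to 10787 normalized counts in the control and 7300 to 12494 in the FF-10101 tumors, NK cell 272 to 953 and 625 to 1148, B cell 46.2 to 68.5 and 39.1 to 71.1, keratinocyte 181 to 268 and 135 to 1065, skeletal muscle 2979 to 6401 and 2913 to 10952, and adipocyte 30.4 to 89.8 and 29.8 to 169. Mast cell sums did not overlap, at 162 to 239.6 and 466 to 1428. Of the 77 marker genes tested, 0 passed an adjusted p of 0.05 in limma with all 6 tumors and 38 passed without control tumor 1, against 21.9% of all genes tested. They were 7 of 7 endothelial, 6 of 7 neutrophil, 4 of 4 mast cell, 4 of 5 NK cell and 4 of 6 monocyte markers. The rest were 4 of 8 mesenchymal, 4 of 10 macrophage, 3 of 8 T cell and 2 of 8 dendritic cell markers. The macrophage markers that passed were lower in the FF-10101 tumors.

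**Figure D5:**
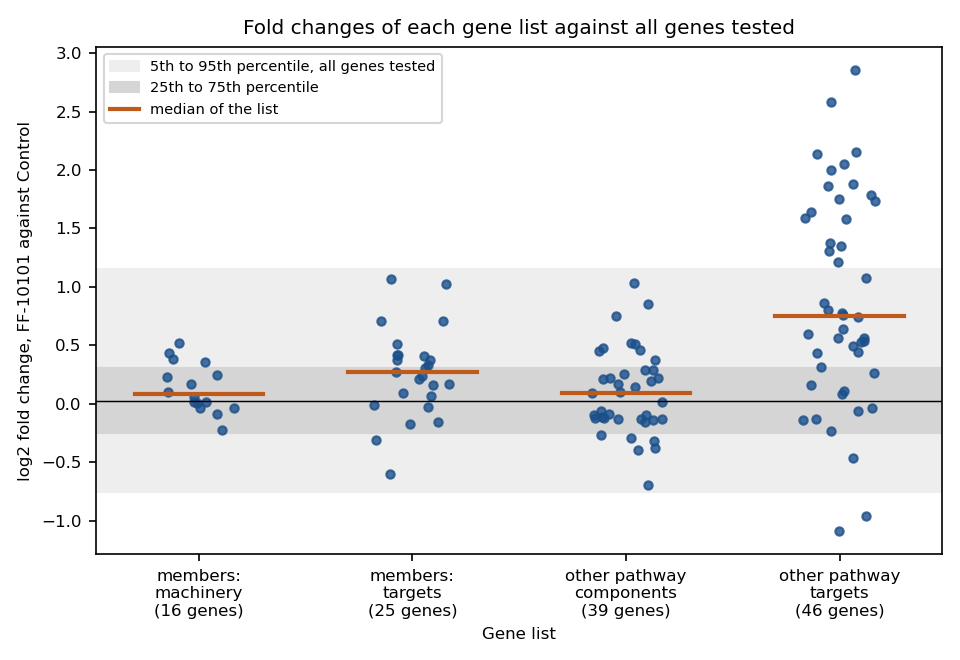
Each point is a tested gene, placed by list (x axis) and by its log2 fold change, FF-10101 against Control, with all 6 tumors (y axis). Orange lines are list medians (0.080 and 0.28 for the machinery and target members, 0.095 and 0.75 for the other components and targets), and grey bands give the 5th to 95th and 25th to 75th percentiles of all genes tested. Most machinery members lie inside the inner band.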

How the data were processed

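Whole MCA205 tumors (3 Control, 3 FF-10101) were sequenced with a NEBNext Ultra II RNA library kit. Per the labels, the authors trimmed reads with fastp 0.19.5, quantified them with Salmon 1.5.1 and normalized with DESeq2 1.22.1. The deposited table holds log2 values with the form of a variance-stabilizing transformation, in which 100% of 325854 values came out as whole reads (tolerance 1e-06), so normalized counts were recovered by inversion. The 13963 genes whose mean reached 10 normalized counts were fitted with limma 3.58.1 (R 4.3.3, empirical Bayes with trend) on log2(normalized count + 1) with the group as sole term and Benjamini-Hochberg adjustment. A floor of 3 reads equalled 2.29 to 3.38 normalized counts per tumor. Symbols, transcript lengths and 31-mers came from GENCODE vM21 (51484 identifiers matched), promoters from RefSeq GRCm38.p6. The members and lists were chosen with earlier results of these data known. Full statistics were given for the members with the 10 smallest unadjusted p, tumor values for at least 1 member of every role, and the 4 other pathway genes with the smallest p. Other pseudocounts, minimums, scalings, weights, a replicate block and each tumor left out were tried.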

Additional observations from a re-analysis of the deposited data

How the results depend on the processing

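No member passed an adjusted p of 0.05 (limma) with pseudocounts of 0.5 and 10, minimum means of 1 read in any tumor and of 50 normalized counts, 75th percentile scaling, quantile normalization, the deposited log2 values, limma-voom run on recovered reads, or the replicate block. With array weights, 26 members and 59 other pathway genes passed and 28 members had an unadjusted p under 0.05, where 59.9% of all genes and 63.4% of the members passed the adjusted test and 64.3% of all genes had an unadjusted p under 0.05. The weights were 0.139, 5.39 and 0.475 for control tumors 1, 2 and 3 and 0.406, 8.08 and 0.859 for FF-10101 tumors 1, 2 and 3, so that 1 tumor in each group carried most of the fit. Of all genes, 6 passed in the reported fit, 17 without a minimum, 3 with a minimum of 50, 8365 with array weights and 1 with the replicate block. With the block 0 members passed the adjusted test and 5 (12.2%), in place of 6, had an unadjusted p under 0.05, against 9.88% of all genes with it and 16.3% without it. Deviations from the group mean correlated at r = −0.29, −0.04 and −0.28 for same-numbered tumors and −0.13 to 0.31 for differently numbered ones. With 3 tumors per group these values cannot decide whether the tumors were paired, and the labels do not say. Quantile normalization gave 8 members whose groups did not overlap (19.5%, against 19.9% of all genes). With each tumor left out, 1 to 3051 of all genes, 0 to 15 members and 0 to 39 other pathway genes passed an adjusted p of 0.05, 3 to 20 members had an unadjusted p under 0.05 (against 7.6% to 37% of all genes), and 5 to 25 members had groups that did not overlap (25, or 61%, against 54.1% of all genes without control tumor 1, and 10, or 24.4%, against 39.2% without FF-10101 tumor 1). In each case the highest count came without control tumor 1. Of the 41 members, 28 kept their sign under all 16 alternatives and 13 did not. With each tumor left out, log2 fold changes that changed sign ranged from −0.029 to 0.72 for *Tnf*, −0.081 to 0.048 for *Traf1*, −0.065 to 0.25 for *Ikbkb*, −0.17 to 0.14 for *Ikbkg*, −0.22 to 0.092 for *Map3k8*, −0.24 to 0.12 for *Nfkb2*, −0.10 to 0.17 for *Rela*, −0.086 to 0.18 for *Relb*, −0.15 to 0.16 for *Nfkbia*, −0.15 to 0.16 for *Nfkbib*, −0.40 to 0.13 for *Tnip3*, −0.14 to 0.19 for *Ptges* and −0.34 to 0.027 for *Marcksl1*. Array weights gave 0.13 for *Traf1*, 0.26 for *Map3k8*, 0.10 for *Nfkbia*, 0.28 for *Nfkbib*, 0.29 for *Tnip3* and −0.16 for *Ptges*. *Nfkbia* was 0.0049 with 75th percentile scaling and 0.0050 with quantile normalization, and *Ikbkg* was −0.00098 with limma-voom. The cause of these shifts was not tested. *Csf2* and *Csf3* had at most 11 reads in any tumor.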
